A study of Mus musculus with 6 samples.

Results

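The 10 genes described here, Otx2, Fgf5, Pou3f1, Foxd3, Tcf15, Zic2, Sox3, Sall2, Pim2 and Fgf15, mark the formative and primed states of pluripotency. They were chosen by name, and each had 1 row in the deposited expression tables, which hold 49415 distinct gene names. In 9 of the 10 the row carried the gene's name alone; the row of Zic2 also named the neighbouring gene Zic5, which has a second row of its own, and how reads of the 2 genes were shared between the rows is not known. RNA was sequenced from mouse embryonic stem cells derived from the blastocyst, of strain C57BL/6J and genotype Mll1fl/fl; Cre-ER TM, meaning that floxed alleles of Mll1 and a Cre recombinase fused to an estrogen receptor domain were carried by every group, the controls included. The labels do not say that Cre was activated in any of them, nor which promoter drives it, nor from how many lines the cells came. There were 3 groups. The first was untreated, with no time given. The second received VD3, the active vitamin D hormone 1α,25-dihydroxyvitamin D3, at 1 µM over 5 days, and the third the same VD3 treatment together with MM-401 at 100 µM, a compound that inhibits the histone methyltransferase MLL1. Leukemia inhibitory factor and feeder fibroblasts were used for every library, with 15% fetal calf serum or 20% serum replacement in the medium. No group received MM-401 alone.

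Each group had 2 libraries, labelled as biological duplicates, but the tables hold 1 pooled column per group. No difference below therefore has a replicate check, and no test was made. The column taken as untreated and that taken as VD3 plus MM-401 carry name endings that the labels leave unexplained, and another meaning would change every comparison that uses them. The pools held 62284598, 73636342 and 73499639 estimated counts in the order untreated, VD3, VD3 plus MM-401, in which values are listed throughout. Embryonic stem cell markers were at 26.4 FPKM (fragments per kilobase of transcript, scaled to sequencing depth) or more in every pool, and 1 of the 8 was called, Dppa5a (row shared with Gsta2), higher with both agents at 628, 959 and 2088 FPKM. Of 13 fibroblast markers, which feeder cells could bring in, 8 were below 1 FPKM in every pool, Lum was listed at 0 in each, and their summed level was 18.3, 26.3 and 18.2 FPKM; Thy1 was the highest at 7.46, 13.8 and 9.41. Of 8 neural progenitor markers, 7 had a row; these summed to 15.9, 24.6 and 20.0 FPKM, Nes was the highest at 9.74, 16.6 and 11.9, and Hes5 was listed at 0 in every pool. The 6 primitive endoderm markers summed to 8.99, 10.3 and 7.98 FPKM.

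Pluripotent cells pass from a naive state, which leukemia inhibitory factor maintains in culture, through a formative state to a primed state that resembles the epiblast after implantation. FGF signalling through ERK drives the transition, and Otx2 redirects the core factor OCT4 to enhancers of the later states. Fgf5 is the classical marker of the post-implantation epiblast and is nearly silent in naive cells, while several of the other genes are also transcription factors of the early nervous system. The set holds 7 genes of transcription factors, 2 genes of FGF ligands and 1 kinase gene.

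RefSeq promoter windows (GRCm38.p6, the sequence of mm10), running from 250 bases before to 50 bases after an annotated start, were at hand for 5 of the 10 genes, 9 windows in all. The 4 windows below are shown because their genes cover the range of behaviour in the set: Foxd3 and Pim2 had values about 2-fold higher with VD3, Otx2 a lower one, and Fgf5 stayed below 1 FPKM. Each is printed 5′ to 3′ on the gene's own strand, with CG dinucleotides, the context of DNA methylation and of CpG islands, in capitals; for Otx2 the outermost of 4 windows is given.
Foxd3, chr4:99656049-99656348, plus strand: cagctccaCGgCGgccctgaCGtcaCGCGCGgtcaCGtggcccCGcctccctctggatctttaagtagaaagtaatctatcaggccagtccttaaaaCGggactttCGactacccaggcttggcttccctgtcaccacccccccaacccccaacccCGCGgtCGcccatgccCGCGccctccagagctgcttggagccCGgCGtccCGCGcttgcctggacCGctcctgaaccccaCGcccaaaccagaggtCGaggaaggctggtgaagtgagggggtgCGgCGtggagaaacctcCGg
Pim2, chrX:7878056-7878355, plus strand: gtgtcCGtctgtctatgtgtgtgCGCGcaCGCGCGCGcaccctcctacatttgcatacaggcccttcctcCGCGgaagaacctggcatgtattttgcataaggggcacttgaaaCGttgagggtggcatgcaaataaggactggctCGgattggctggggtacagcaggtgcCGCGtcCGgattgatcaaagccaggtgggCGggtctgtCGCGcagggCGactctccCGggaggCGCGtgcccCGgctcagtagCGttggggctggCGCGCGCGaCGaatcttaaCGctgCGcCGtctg
Otx2, chr14:48667595-48667894, minus strand: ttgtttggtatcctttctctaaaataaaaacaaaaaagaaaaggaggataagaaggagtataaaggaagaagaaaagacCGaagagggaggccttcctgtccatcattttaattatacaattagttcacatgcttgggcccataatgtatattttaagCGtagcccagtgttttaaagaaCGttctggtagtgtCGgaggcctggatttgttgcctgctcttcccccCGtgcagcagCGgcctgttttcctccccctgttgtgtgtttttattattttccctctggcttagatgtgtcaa
Fgf5, chr5:98253934-98254233, plus strand: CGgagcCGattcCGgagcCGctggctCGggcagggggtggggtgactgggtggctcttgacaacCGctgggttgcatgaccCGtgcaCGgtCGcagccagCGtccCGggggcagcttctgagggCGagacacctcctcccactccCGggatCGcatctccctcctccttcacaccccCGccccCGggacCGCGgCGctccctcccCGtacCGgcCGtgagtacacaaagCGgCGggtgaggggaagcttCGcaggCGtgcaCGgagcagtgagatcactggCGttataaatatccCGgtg
The Foxd3, Pim2 and Fgf5 windows held 25, 31 and 29 CG dinucleotides, and the Otx2 window held 6, against a median of 7 and a 90th percentile of 31 over 32851 windows. The number of CG dinucleotides did not order these genes by level: Fgf5 and Pim2 had similar numbers and stood far apart in expression. A perfect DR3 element, which is AGGTCA repeated in the same direction after 3 bases of any kind and is bound by the vitamin D receptor with its partner RXR, was on neither strand of any of the 9 windows, and occurred in 2 of all 32851 windows (0.00609%). The half-site AGGTCA, which the DR3 element contains, was likewise on neither strand of any of the 9, against 16.3% of all. TATAAA, searched on both strands, was in the Fgf5 and Otx2 windows shown and in 1 of Sall2, against 13.6% of all.

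The genes covered a wide range of levels, and Tcf15 stood far above the rest. In untreated cells the order by FPKM was Tcf15 (167), Pim2 (25.3), Pou3f1 (15.3), Otx2 (8.70), Zic2 (8.12), Sall2 (4.64), Foxd3 (3.78), Fgf15 (2.2), Sox3 (0.866) and Fgf5 (0.354). Of the 9 pairs of neighbours in that order, 1 had intervals of the authors that did not overlap, that of Tcf15 and Pim2. The order changed with treatment in the middle of the range, where Foxd3 ranked 7 in untreated cells, 4 with VD3 and 5 with both agents. Tcf15 made up 70.7%, 79.0% and 83.8% of the summed FPKM of the 10 genes. Its FPKM was high beside its counts. Counts, FPKM and the pool's total count gave nominal lengths of 377, 324 and 297, against 980 bases of the annotated transcript. Their ratio was 0.385, 0.330 and 0.303, where the median gene had 0.758, 0.644 and 0.640. These lengths serve to set genes of the same pool side by side. They are not true lengths and show no change with treatment: for Pou3f1, of 3849 annotated bases, they were 4124.5, 3489 and 3495. By depth-scaled counts per kilobase of annotated transcript, Tcf15 was at 64.3, 120.3 and 151, still the highest of the set, but 2.93, 3.26 and 4.43 times Pim2, where by FPKM it was 6.60, 7.62 and 10.7 times Pim2.

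**Figure D1:**
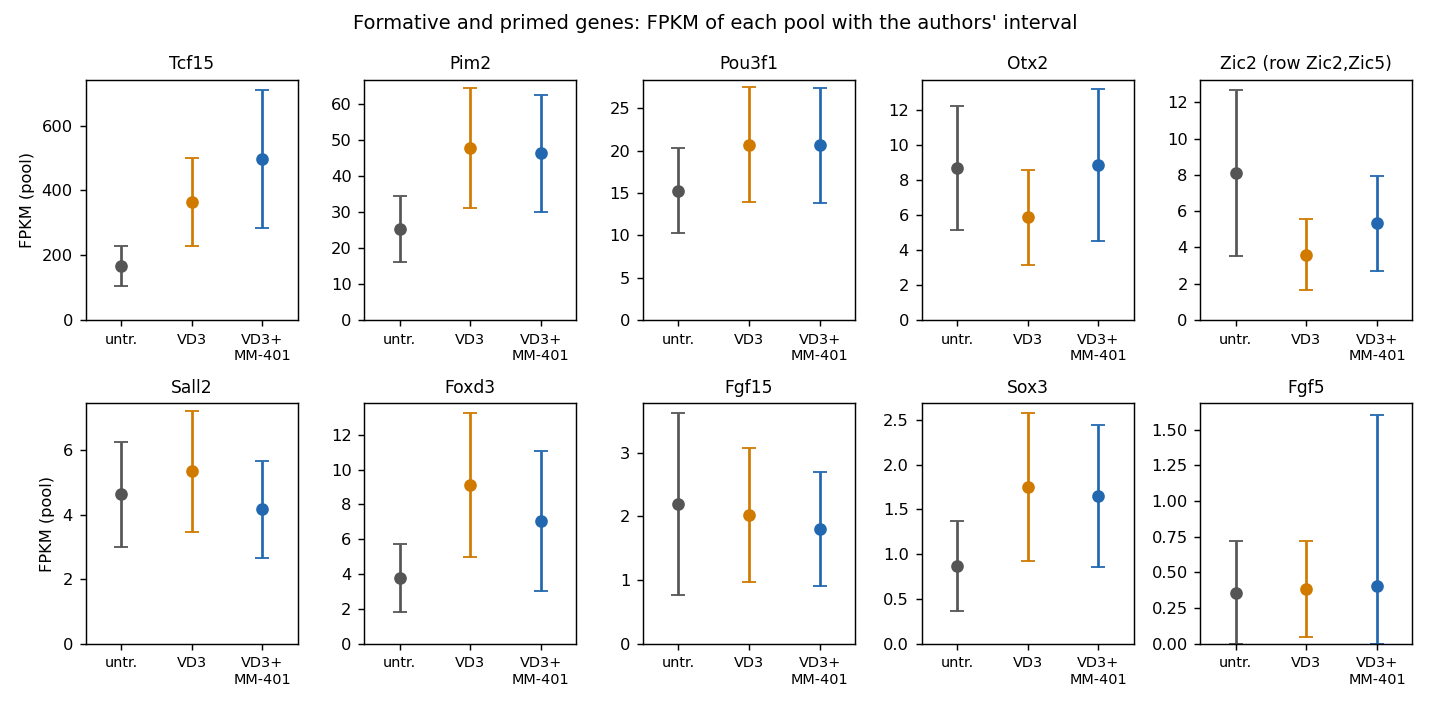
Level (FPKM) of each of the 10 genes in the 3 pools, 1 panel per gene with its own vertical axis from 0; points are the pooled values and bars the authors' confidence intervals. Tcf15, Pim2, Foxd3, Sox3, Pou3f1 and, slightly, Fgf5 have higher values in both treated pools, and Zic2 and Fgf15 have lower ones. Intervals of a gene overlap except for Tcf15 between untreated and VD3 plus MM-401.

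Differences between pools are given as the log2 ratio of FPKM + 1, a scale that understates differences of low genes, with the error that the authors' variance of both counts implies. That error belongs to a ratio of counts with nothing added, so for low genes it and the difference are on unlike scales. A gene was called where it reached at least 5 FPKM in the higher pool, differed by at least 1 on the log2 scale and had intervals of the authors that did not overlap. Of the 10 genes, 7 reached 5 FPKM in some pool, and Fgf5, Fgf15 and Sox3 did not. On the log2 scale of FPKM + 1, the median of all genes was 0.36 above untreated with VD3 and 0.27 with both agents. A relative difference below is one from which this shift was subtracted. The shift depends on the scaling: by counts scaled to each pool's total, the same medians were 0.13 and 0.04. Adjustment for GC content and transcript length, where given, removes a general shift between pools as well. In such bulk pools, fewer cells of a kind and less RNA per cell cannot be told apart.

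After 5 days of the hormone, the 10 genes did not differ in 1 direction. Tcf15, Foxd3, Pim2 and Sox3 had values 1.89-fold to 2.41-fold the untreated one by FPKM, while Zic2 was at 0.444 and Otx2 at 0.676 of it. None of the 7 genes of sufficient level was called, against 0.926% of 10910 genes called higher and 4.22% called lower. By the 2-fold criterion alone, Tcf15 and Foxd3 were higher, against 3.54% of all genes, and none was lower, against 8.69%. Zic2 fell just short of it at -0.99, and was at -1.15 with 0.1 in place of 1 added to FPKM. Over all 10 genes the median difference was 0.29 beside 0.36 for all genes tested, with 5 above the median gene and 5 below. Over the 7 of sufficient level it was 0.42, and 0.10 after adjustment for GC content and transcript length. Foxd3 and Sall2 joined these only through their VD3 pools, and Zic2 only through its untreated pool.

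The pool given both agents, set against untreated cells, does not separate the agents. Tcf15 was called higher, the only call among the 6 genes with at least 5 FPKM in this comparison; 4.26% of 10969 genes were called higher and 2.69% lower. By the 2-fold criterion alone Tcf15 was again the only one, against 13.4% of all genes higher and 6.24% lower. Over all 10 genes the median difference was 0.23 beside 0.27 for all genes tested, with 5 above the median gene and 5 below. Over the 6 of sufficient level it was 0.58, and 0.12 after adjustment for GC content and transcript length. Foxd3 joined these only through its pool of both agents, so the level filter favoured a high value there. Against VD3 alone, the comparison that addresses what the inhibitor adds, none of the 7 genes of sufficient level was called, where 0.83% of 10719 genes were called higher and 0.541% lower. None passed the 2-fold criterion alone either, against 4.7% and 2.02%, and the 10 differences ran from -0.32 to 0.52. Both comparisons with untreated cells share the untreated pool, so a common direction in them is not counted as support.

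**Figure D2:**
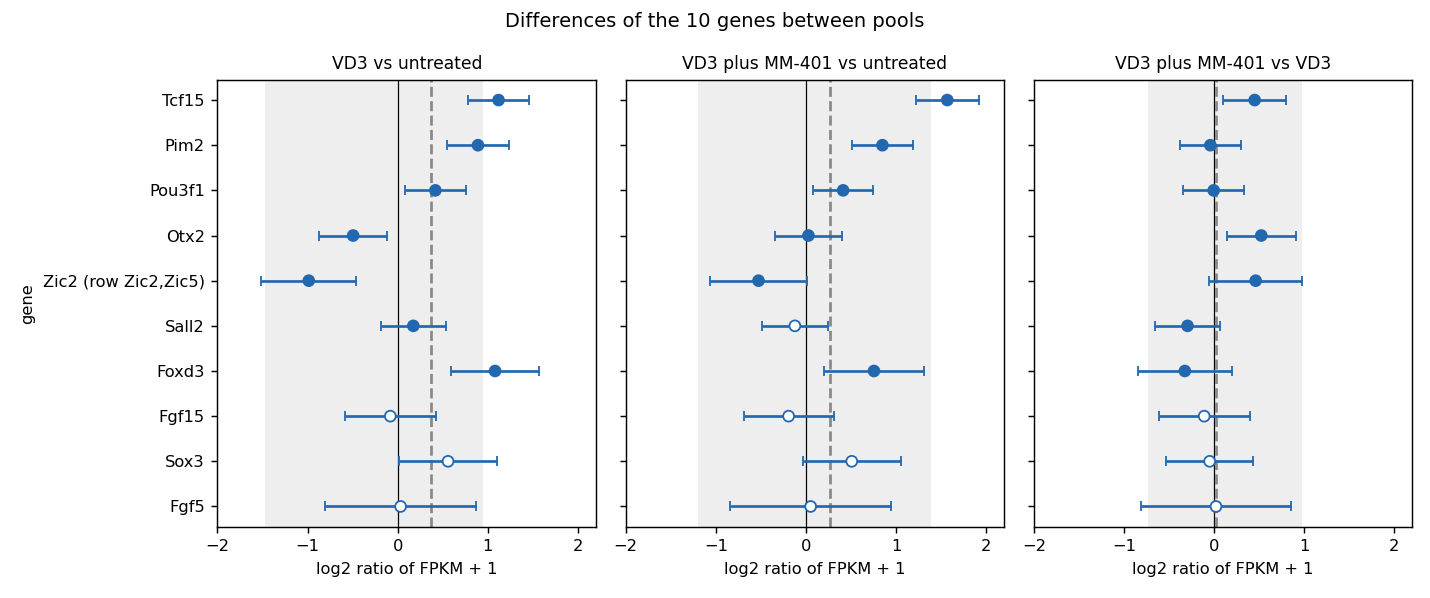
Log2 ratio of FPKM + 1 of each gene in the 3 comparisons, with the error implied by the authors' count variances as bars; open points did not reach 5 FPKM in the comparison, the dashed line is the median of all genes and the grey band their 5th to 95th percentile. Tcf15 and Foxd3 lie above the band with VD3 and Tcf15 with VD3 plus MM-401, and no gene lies outside it between the treated pools.

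Among the transcription factors, Otx2, which starts the exit from the naive state, had 1090.5, 692 and 1058 counts. Its FPKM, with the authors' interval, was 8.70 when untreated (5.16 to 12.2), 5.88 with VD3 (3.16 to 8.60) and 8.88 with VD3 plus MM-401 (4.53 to 13.2). The VD3 pool was the low one, and all 3 intervals overlapped. The difference from untreated was -0.50 (error 0.38) with VD3, where it was -0.83 by CPM and -0.86 relative to the median gene, and 0.03 (error 0.38) with both agents, where it was -0.27 by CPM and -0.24 relative to the median gene, and between the treated pools it was 0.52 (error 0.38). Its paralogs Otx1 and Crx stayed below 0.5 FPKM, Crx being listed at 0 in every pool.

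Pou3f1, which encodes OCT6, a POU factor induced in the formative epiblast and in neural progenitors, stood at 15.3 (10.2 to 20.3), 20.7 (13.9 to 27.5) and 20.6 FPKM (13.8 to 27.4). Both treated pools were higher than untreated by 0.42 and 0.41 (error 0.34 each), near the shift of the median gene, and the difference between them was -0.00. The antisense gene Gm2164 overlaps Pou3f1, and the counting is not stated to use strand. Its related factor Pou5f1 (OCT4) was at 1114, 2053 and 1832 FPKM with overlapping intervals, and Pou3f2, Pou3f3 and Pou3f4 were below 0.1 FPKM throughout.

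Foxd3, a forkhead factor needed for the pluripotent epiblast and for neural crest, was at 3.78 FPKM in untreated cells (1.85 to 5.71), 9.10 with VD3 (4.97 to 13.2) and 7.06 with both agents (3.04 to 11.1). The untreated pool was the lowest, and its interval reached slightly into that of the VD3 pool. The difference was 1.08 (error 0.49) with VD3, and 2.49% of all genes had one at least as high. With both agents it was 0.75 (error 0.55). By CPM the same differences were 0.95 and 0.61, both short of 2-fold. Foxd3 reached 5 FPKM only in the treated pools, so the level filter favoured a high value there. Gm12688, a long noncoding RNA gene that starts upstream of Foxd3 on the opposite strand (chromosome 4, 99653607 to 99654983), showed the same order of untreated against treated pools, at 3.85, 9.66 and 12.4 FPKM with overlapping intervals. The counting is not stated to use strand, so reads of overlapping transcripts at this locus may not be separable.

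Tcf15, a basic helix-loop-helix factor that primes cells for exit from the naive state and later acts in somites, was at 167 FPKM in untreated cells (105 to 229), 364 with VD3 (227 to 501) and 498 with both agents (284 to 711). Its counts were 3925, 8682 and 10853. The 3 pools rank in that order, and the untreated interval was apart from that of both agents while its upper end just exceeded the lower end of the VD3 interval. The difference was 1.12 (error 0.34) with VD3 and 1.57 (error 0.35) with both agents, and relative to the median gene 0.75 and 1.30. By CPM, counts scaled to the pool's total, the same differences were 0.89 and 1.22. Between the treated pools the difference was 0.45 (error 0.35) by FPKM, 0.32 by CPM and -0.09 after adjustment for GC content and transcript length, so the order of the treated pools turns with the adjustment.

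Zic2, a zinc finger factor of the primed epiblast and neural plate, was the gene of the set with the lowest difference in both comparisons with untreated cells. The row shared with Zic5 stood at 8.12 (3.55 to 12.7), 3.60 (1.66 to 5.55) and 5.34 FPKM (2.71 to 7.96), with 1139, 542 and 754 counts. The untreated pool was the highest and the intervals overlapped. The difference was -0.99 (error 0.52) with VD3 and -0.53 (error 0.54) with both agents. Zic5, which lies beside Zic2 on the opposite strand (chromosome 14, 122456795 to 122465677), also has a row of its own, at 6.67, 2.21 and 3.39 FPKM, with a difference of -1.26 with VD3 and overlapping intervals. The noncoding transcript 2610035F20Rik between them was at 0.870, 0.0897 and 0.385 FPKM, on 178, 19.1 and 41.4 counts, with a lower bound of 0 in every pool. The 3 rows of the locus had the same order of pools, but 2 of them may share reads of Zic2 and Zic5.

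Sox3, a SOXB1 factor of the epiblast and neural plate, was low, at 0.866 (0.365 to 1.37), 1.75 (0.921 to 2.57) and 1.65 FPKM (0.861 to 2.45). Its counts were 114, 229 and 217, and both treated pools were about alike. The difference was 0.56 with VD3 and 0.51 with both agents (error 0.54 each), under the minimum level for a call. With nothing added to FPKM it was 1.01 and 0.93. After the adjustment for transcript composition described below it was 0.14 and -0.27, from a fit to genes of at least 5 FPKM, which Sox3 did not reach. The related Sox1 was at 4.90, 6.29 and 6.35 FPKM and Sox2 at 156.5, 163 and 195, with no call for either.

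Sall2, a zinc finger factor of the spalt family, stood at 4.64 (3.01 to 6.27), 5.36 (3.48 to 7.23) and 4.18 FPKM (2.67 to 5.68). All differences, of 0.17, -0.12 and -0.30 in the 3 comparisons, were smaller than their error of 0.36. By CPM they were -0.04, -0.39 and -0.35, of which that of both agents against untreated exceeded its error. Its paralogs Sall4 and Sall1 were at 171, 210.5 and 191 FPKM and at 22.0, 14.6 and 14.8 FPKM.

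Both FGF ligand genes were near the lower end. Fgf5 was at 0.354, 0.384 and 0.404 FPKM, on 31.7, 46.3 and 41.7 counts, with upper bounds of 0.723, 0.7200 and 1.60. Fgf15, an FGF expressed in the early neural plate, with the antisense genes Gm26793 and Gm39119 at its locus, was at 2.2 (0.767 to 3.63), 2.02 (0.975 to 3.07) and 1.80 FPKM (0.910 to 2.69). For neither gene did a difference between pools exceed its error as measured. After adjustment for GC content and transcript length, Fgf15 was at -0.63 with VD3 and -0.83 with both agents, from -0.08 and -0.19. The adjustment was fitted to genes of at least 5 FPKM, and by it Hes5, listed at 0 in every pool, came to -0.61 with VD3. Fgf15 lies below the range of the fit, so its adjusted values are not read as a decrease. Of the 22 FGF genes looked up, 14 were below 1 FPKM in every pool and Fgf4, the ligand that embryonic stem cells make themselves, was at 105, 139 and 117 FPKM. Fgf17 was called higher in both treated pools, at 7.21, 18.3 and 21.2 FPKM. Its differences of 1.23 and 1.43 fell short of 2-fold after adjustment, at 0.59 and 0.76, and the VD3 one also relative to the median gene, at 0.87. Fgf13 was called lower with both agents at 7.59, 3.57 and 2.46 FPKM, while its counts of 328, 492 and 358 did not follow that order.

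Pim2, a serine/threonine kinase gene downstream of STAT3 that favours survival, was the second highest gene of the set. It stood at 25.3 FPKM in untreated cells (16.2 to 34.5), 47.8 with VD3 (31.2 to 64.4) and 46.4 with both agents (30.1 to 62.7). The treated pools were close to each other, and their intervals overlapped that of the untreated pool over a short stretch. The differences were 0.89 and 0.85 (error 0.34 each), and 6.38% and 18.8% of all genes had one at least as high. Of its paralogs, Pim3 was at 58.2, 101 and 87.4 FPKM and Pim1 at 114, 123 and 96.9, none called.

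As a pattern over the 3 pools, Pou3f1 and Sox3 were closest to each other on the scale of FPKM + 1. The distance between their 2 differences from untreated was 0.17, followed by Foxd3 and Pim2 at 0.21. The closest pair depends on that scale, which shrinks the differences of Sox3. With nothing added to FPKM, Sox3 was at 1.01 and 0.93, Pou3f1 at 0.44 and 0.44, and Pim2 at 0.92 and 0.87. Tcf15 and Zic2 were farthest apart at 2.97. With 3 pools such likeness singles out no gene: 296 other genes of 11228 lay within 0.1 of Pou3f1, and 13 within 0.1 of Tcf15.

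Other genes of the same states showed few differences of this size. None of the 16 further formative genes was called in either comparison with untreated cells. Their median difference was 0.40 with VD3 and 0.22 with both agents, beside 0.36 and 0.27 for all genes, and 8 and 7 lay above the median gene. Lef1, a Wnt effector, was at 6.52, 14.1 and 11.04 FPKM, on 321, 592 and 355 counts. Its lower bound was 0 in the untreated pool and with both agents. By CPM its differences from untreated were 0.56 and -0.07. Zic5 had the lowest difference. Sox4, a SOX factor, was at 7.74, 5.79 and 6.74 FPKM, and Cldn6, a tight junction gene of the epiblast, at 128, 176 and 217. Utf1, a chromatin factor, was at 290.2, 416 and 531 FPKM. Etv5, an ETS factor downstream of FGF, was at 66.3, 108 and 85.9. The DNA methyltransferase genes Dnmt3a and Dnmt3b, whose products methylate the formative genome, were at 325, 395 and 382 and at 101, 138 and 109.8 FPKM, the row of Dnmt3b being shared with Dnmt3c-ps. Of 12 primed and early germ layer genes, 7 were below 1 FPKM in every pool and Sox11 alone reached 5 FPKM, at 6.39, 4.31 and 8.97. T (brachyury) was at 1.18, 1.13 and 1.68 FPKM and Eomes at 2.13, 2.82 and 3.57.

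Naive genes, measured the same way, had medians of 0.15 and 0.08 over 14 genes, with 5 and 4 above the median gene and none called. Tet2 was at 27.5, 7.98 and 15.4 FPKM, and Nr0b1 at 65.9, 116 and 148. The Krüppel-like factor genes Klf4 and Klf2 were at 76.2, 62.6 and 63.0 FPKM and at 16.9, 24.2 and 32.3. Tfcp2l1, a naive factor whose row is shared with Gm23497, was at 128, 228 and 127 FPKM, with a lower bound of 0 in every pool. Its counts of 21450, 26055 and 21304 differed less, by 0.04 with VD3 on the log2 scale of CPM. Prdm14, a repressor of FGF signalling, was at 6.97, 5.66 and 4.97 FPKM. In the FGF-ERK list, 12 genes reached the minimum with VD3 and 11 with both agents, none was called, and the medians were 0.38 and 0.15. Dusp6, a phosphatase induced by ERK, was at 85.5, 149 and 133 FPKM, Etv4 at 172, 277 and 255, and Spred1, an inhibitor of the pathway, at 26.1, 15.6 and 22.0. Dusp4, another ERK phosphatase, was at 2.63, 5.27 and 4.47 FPKM. Of the receptor genes, Fgfr1 was at 67.5, 84.4 and 54.9 FPKM, and Fgfr2, in a row shared with Ctbp2 and Gm15718, at 252, 244 and 211. Fgfr3 was at 7.31, 4.88 and 15.2 FPKM, while its counts of 258, 305 and 300.4 did not follow that order. The 21 paralogs of the 10 genes included 9 of sufficient level in both comparisons, with medians of 0.11 and 0.16 and no call.

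**Figure D3:**
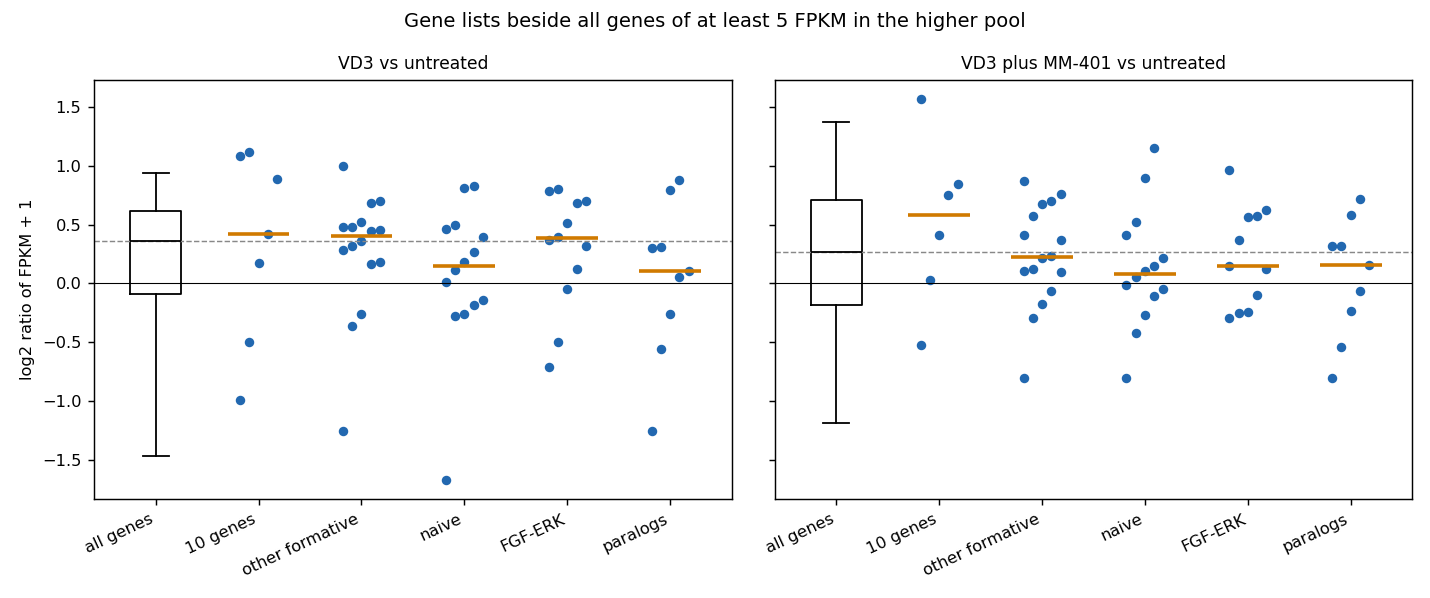
Log2 ratio of FPKM + 1 against untreated for genes of at least 5 FPKM in the higher pool; points are genes, orange bars list medians, and the box shows the quartiles of all genes with whiskers at the 5th and 95th percentile. The 7 and 6 genes shown of the 10-gene set have medians of 0.42 and 0.58. These are 0.29 and 0.23 over all 10 genes, and 0.10 and 0.12 over those shown after adjustment for GC content and length. The naive list has 0.15 and 0.08, and -0.16 and -0.23 adjusted. Adjusted values also have the general shift between pools removed.

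Transcript composition moved with the differences, and 4 of the 10 genes were of extreme composition. The longest coding transcripts of Pou3f1, Foxd3, Tcf15 and Sox3 had a GC content of 63.9%, 65.1%, 65.8% and 66.4%, where 4.64% of expressed protein-coding genes reached 60%, and Pou3f1, Foxd3 and Sox3 have a single exon, as did 1.90% of those genes. Across the 8798 protein-coding genes of at least 5 FPKM in the higher pool, the median VD3 difference was -0.56 below 45% GC and 0.53 at 60% or more. Otx2 and Fgf5, at 46.8% and 47.0%, were the members of lowest GC content. After adjustment for GC content and transcript length, the VD3 difference of Tcf15 was 0.57, of Foxd3 0.65 and of Pim2 0.27. The adjustment includes removal of the general shift, and relative to the median gene alone these were 0.75, 0.72 and 0.53. With both agents, Tcf15 was at 0.42 and no longer called, Foxd3 at 0.12 in place of 0.75, and Pim2 at 0.27. Relative to the median gene alone, they were at 1.30, 0.49 and 0.58 with both agents. The part of transcript composition in these differences was not tested further.

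By its pooled values, Zic2 went against its composition. At 59.9% GC, its VD3 difference of -0.99 compares with a median of 0.52 for the 1711 other genes of 55% to 60% GC, of which 3 (0.175%) were at least as low. In the VD3 comparison Zic2 reached 5 FPKM only through its untreated pool, so the level filter favoured a low value, and its intervals overlapped. Relative to the median gene alone, the difference of Zic2 was -1.35 with VD3 and -0.79 with both agents. Adjusted for GC content and length, Zic2 was at -1.53 with VD3 and -0.99 with both agents. It was the only one of the 10 genes beyond 2-fold after adjustment in any comparison, against 1.72% of protein-coding genes higher and 2.67% lower with VD3, 3.33% and 2.75% with both agents, and 1.79% and 1.06% between the treated pools. The adjustment used the Zic2 transcript although the row also names Zic5, and the comparison within the GC range was added after the values were seen.

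**Figure D4:**
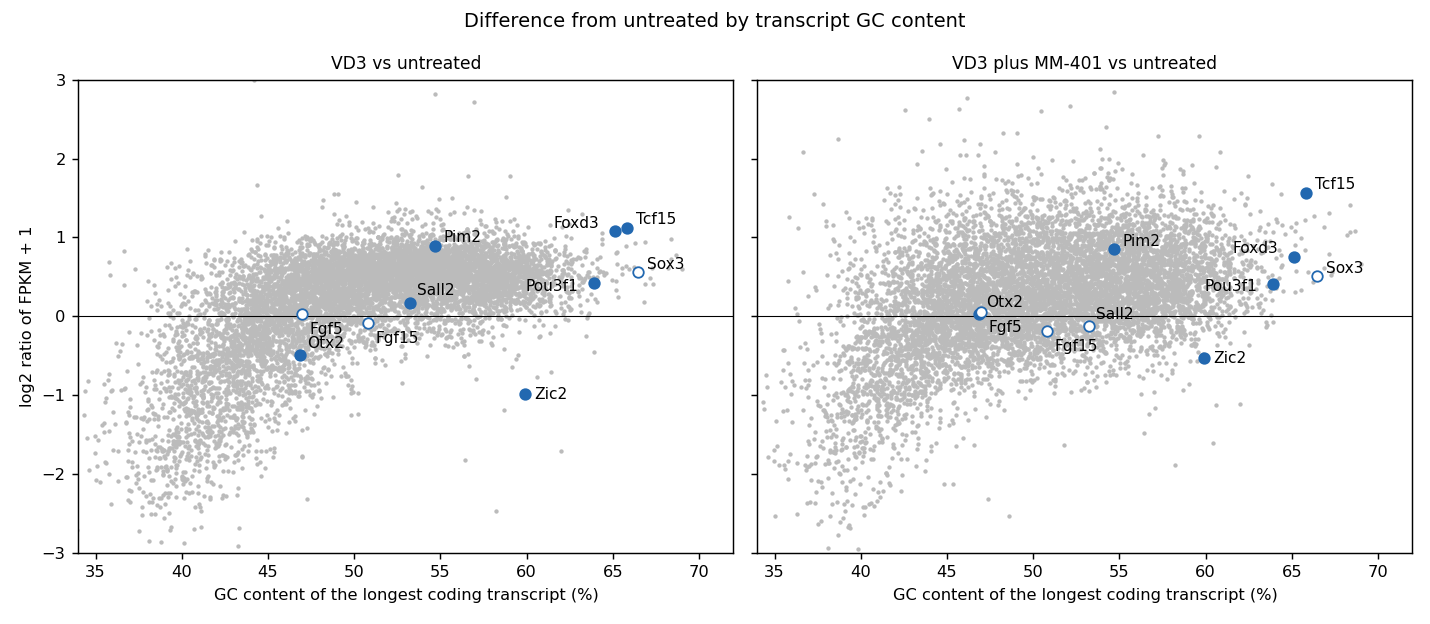
Log2 ratio of FPKM + 1 against untreated by GC content of the longest coding transcript; grey points are protein-coding genes of at least 5 FPKM in the higher pool and blue points the 10 genes, open where below that level. Grey points rise with GC content, Tcf15 and Foxd3 lie at the upper edge with VD3 and Zic2 far below genes of like GC content; 12 and 21 genes lie outside the axes.

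By position, Otx2, Zic2 and Sall2 lie on chromosome 14 (starts at 48657677, 122475435 and 52311172), Foxd3 and Pou3f1 on chromosome 4 (99656299 and 124656807), Pim2 and Sox3 on the X chromosome (7878262 and 60891366), Tcf15 on chromosome 2 (152143561), Fgf5 on chromosome 5 (98254184) and Fgf15 on chromosome 7 (144896531), in GENCODE M21 coordinates of GRCm38. Genes of chromosome 14 had a median VD3 difference of 0.24 and those of the X chromosome one of 0.07, beside 0.36 for all genes. Otx2, Zic2 and Sall2 lay below the first of these values, and Pim2 and Sox3 above the second.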

How the data were processed

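TruSeq libraries, 6 in 3 groups, were sequenced, per the labels' protocols. TopHat2 (2.1.1), Cufflinks (2.2.1), SAMtools (1.5) and build mm10 are named in the submitters' processing notes, with neither order nor settings. The authors deposited, per the file headers, FPKM with confidence bounds of unstated level for 62490 loci, and an estimated count with its variance, in 1 pooled column per group. The untreated and VD3 plus MM-401 columns were matched through the part of their names that the group titles share; the labels leave their endings unexplained.

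The 14 loci without valid status were left out, and loci of 1 name were summed. Differences are log2 ratios of FPKM with a pseudocount of 1. Adjustment for composition was a cubic polynomial (degree 3) in GC content and log length, from GENCODE M21. The fit had a constant term and was made on genes of at least 5 FPKM in the higher pool. Computation used Python 3.11.15 and pandas 2.3.3, and the calling was tested on simulated data. The design foresaw pooled columns and no test. Members and lists were chosen with earlier results of these data known; beyond the 10 genes, each list is given by counts, called genes and its genes of largest difference, and a few further genes were named after their values were seen. Unnamed loci held 0.36%, 0.346% and 0.408% of counts, left out of CPM. The error implied by the authors' variance was between 16.4% and 44.0% of the count for the 10 genes. 1 further gene of the lists is not reported here.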

Additional observations from a re-analysis of the deposited data

How the results depend on the processing

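No paired analysis was possible because the columns carry no replicate number, and for the same reason no library could be left out. With the 2-fold criterion alone, 2 of the 10 genes were higher with VD3 in place of 0, and after adjustment for GC content and length 0 in place of 1 were higher with VD3 plus MM-401. The other alternatives for which the 10 genes were counted (a pseudocount of 0.1, a minimum of 1 FPKM, CPM, centring, and the highest locus of each name) gave the reported counts; they were not counted without a minimum. The counts over all genes moved more. With VD3, 101 higher genes became 22 by CPM, 54 when centred on the median gene (beside 474 lower), 386 without the interval criterion and 15 when adjusted; 460 lower genes became 948 without it and 108 adjusted. With VD3 plus MM-401, 467 higher genes became 249, 299 (beside 304 lower), 1468 and 47 in the same order, and 295 lower genes became 685 and 81. Between the treated pools, 89 higher genes became 46 by CPM, 504 without the interval criterion and 16 adjusted, and 58 lower genes became 97 at a minimum of 1 FPKM and also with no minimum, 11 by CPM, 216 without the interval criterion and 10 adjusted. Adjustment covers protein-coding genes only; the cause was otherwise not tested. Of the single differences of the 10 genes under the alternatives, 163 stayed within their error of the reported value and 14 did not. Many of the 163 could not have moved. A minimum of 1 FPKM leaves the difference itself unchanged, and so does the highest locus, since each gene had 1 locus. The 14 all arose from centring or from the adjustment for GC content and length. The intervals are the authors' model of each pool, so no spread between libraries stands behind any of these counts.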
